A study of Mus musculus with 4 samples.

Results

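The cytoplasmic ribosomal protein genes are the genes whose products, together with ribosomal RNA, build the ribosome that translates nuclear mRNA. Their 83 members among the 27293 genes of the deposited count table were taken by symbol and biotype: protein-coding rows named Rpl or Rps with a number, their lettered and "like" copies, the stalk genes Rplp0, Rplp1 and Rplp2, and Rpsa. They comprised 43 genes of the large subunit, 30 of the small subunit, 3 of the stalk and 7 close copies of other members (Rpl3l, Rpl7l1, Rpl22l1, Rpl36al, Rpl39l, Rps27l and Rps27rt). The mitochondrial ribosomal proteins are outside the rule, as are Fau, which encodes a ribosomal protein fused to a ubiquitin-like protein, and Rack1, a scaffold protein on the small subunit.

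RNA was taken from telencephalic tissue of C57BL/6 mouse embryos at embryonic day 13 (E13), when the dorsal telencephalon holds dividing neural progenitors and their first neurons, and reads were counted per gene in 4 libraries. Of these, 2 are labelled WT and 2 are labelled STINGf/f;Nestin-Cre (cKO here). In the latter, Cre made from the Nestin promoter is meant to remove floxed STING sequence from neural progenitors and the cells they give rise to. It was not tested here whether blood, vessel or meningeal cells keep it. Whether the WT embryos carried Cre or floxed alleles is not given in the sources used here, and the title of WT 2 has another abbreviation ("nes") than that of WT 1. Nothing states that the libraries came from separate embryos or litters. Counts on 4 Y-linked genes were 2735 in WT 1 and 0 in WT 2, so these 2 libraries do not hold the same RNA. The p-values below measure only the spread between these 4 libraries, which may be technical in part.

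Total counts ran from 17209654 to 18533391 per library. The STING gene, listed as Tmem173, had 20 and 19 counts in WT 1 and WT 2, and 18 and 22 in cKO 1 and cKO 2, so that its count over the whole gene did not set the groups apart and did not check the labels. WT and cKO therefore stand for libraries labelled so. All 11 genes used to check the tissue (among them Emx1, Pax6 and Tbr1) were detected in every library. Each of 3 libraries stood apart in a way of its own. In WT 1 the summed level of choroid plexus genes (5 of 7 listed genes, the other two not analysed here) was 42.2 CPM (a gene's count scaled to the same total in every library) against 6.20 to 9.28 in the other libraries, and that of meningeal genes 282 against 36.2 to 73.0 CPM. WT 2 had 0 counts on 4 Y-linked genes that had 1848 to 3002 in the others. In cKO 2 the neuronal genes did not move one way, since Dcx was at 517 CPM against 864 to 1107 and Tubb3 at 2246 against 1698 to 2040 CPM. cKO 2 was also the library in which nearly all ribosomal protein genes were highest, so results are given with and without it.

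A ribosome joins a small subunit, which reads the mRNA, and a large subunit, which forms the peptide bonds and carries a stalk of acidic proteins that recruits the elongation factors. A ribosome needs nearly every one of these proteins in a single copy, so that their genes are expressed at high and similar levels in growing cells, and ribosome production is high in early neuroepithelium. Ribosomal protein mRNAs typically open with a C followed by a run of pyrimidines (the TOP sequence), through which mTOR signalling controls their translation, a step that mRNA counts do not show. These abundant mRNAs have also left many processed pseudogenes in mammalian genomes, whose sequence can be nearly that of the parent gene.

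The TOP feature was looked up in the start sites that RefSeq annotates on GRCm38.p6, where 63 of the 83 members had an entry. A run was counted where a C within 5 bases of the annotated start, on the strand of the gene, was followed by at least 4 more C or T, and a gene with several annotated starts was counted by the start with the longest run. By this measure 30 of the 63 members (47.6%) held a run, against 21.2% of 27025 genes, 5 of 10 translation factors of the TOP group with an entry and 24.6% of 69 mitochondrial ribosomal proteins. The windows below cover 15 bases before the start and 15 from the start on, with the run in capitals up to the end of the window. They were chosen to show long runs (Rpl27a, Rpl15, Rpl13a, Rps6), the 2 members with the highest and the lowest fitted fold change (Rps27rt and Rpl22l1, the former beside its parent Rps27), and members without such a run at the annotated start (Rpl5, Rpl37, Rplp0).
Rpl27a (chr7:109519180-109519209, plus strand): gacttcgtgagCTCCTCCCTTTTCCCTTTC
Rpl15 (chr14:18270972-18271001, minus strand): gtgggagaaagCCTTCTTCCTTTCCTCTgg
Rpl13a (chr7:45128731-45128760, minus strand): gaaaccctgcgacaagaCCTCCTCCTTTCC
Rps6 (chr4:86857353-86857382, minus strand): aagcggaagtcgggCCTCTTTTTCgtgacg
Rps27 (chr3:90213634-90213663, minus strand): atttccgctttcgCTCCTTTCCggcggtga
Rps27rt (chr9:114982725-114982754, minus strand): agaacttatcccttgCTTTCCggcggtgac
Rpl22l1 (chr3:28805493-28805522, plus strand): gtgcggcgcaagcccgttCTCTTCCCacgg
Rpl5 (chr5:107900513-107900542, plus strand): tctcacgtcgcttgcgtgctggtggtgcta
Rpl37 (chr15:5116598-5116627, plus strand): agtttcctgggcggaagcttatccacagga
Rplp0 (chr5:115559452-115559481, plus strand): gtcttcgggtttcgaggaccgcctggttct
A run in these letters is a description of the annotated start and not of a start measured in this tissue, and its absence says only that these letters are not in the window. Rps27 and Rps27rt share the bases that follow their runs.

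Most members had levels of the same order. Expressed as CPM per kb of the annotated transcript, 71 of the 83 members lay between 100 and 1200 in the mean of the 4 libraries. The highest level per length was that of Rplp0, the scaffold of the stalk, at 1139 CPM per kb, followed by Rpl41, which encodes one of the shortest proteins known in mammals, at 1105, and Rpl13 at 1003 CPM per kb. By CPM without regard to length, the 3 highest members were Rplp0, Rpsa and Rpl4. Rplp0 was at 1475 and 1467 CPM in WT 1 and WT 2, and 1418 and 1827 in cKO 1 and cKO 2. Rpsa, a small subunit protein also known as the laminin receptor, was at 1265, 1211, 1204 and 1514 CPM in the same order. Rpl4 was at 1164, 1091, 1104 and 1340 CPM. In all 3 genes cKO 2 was the highest library and cKO 1 lay near or below the WT libraries.

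**Figure D1:**
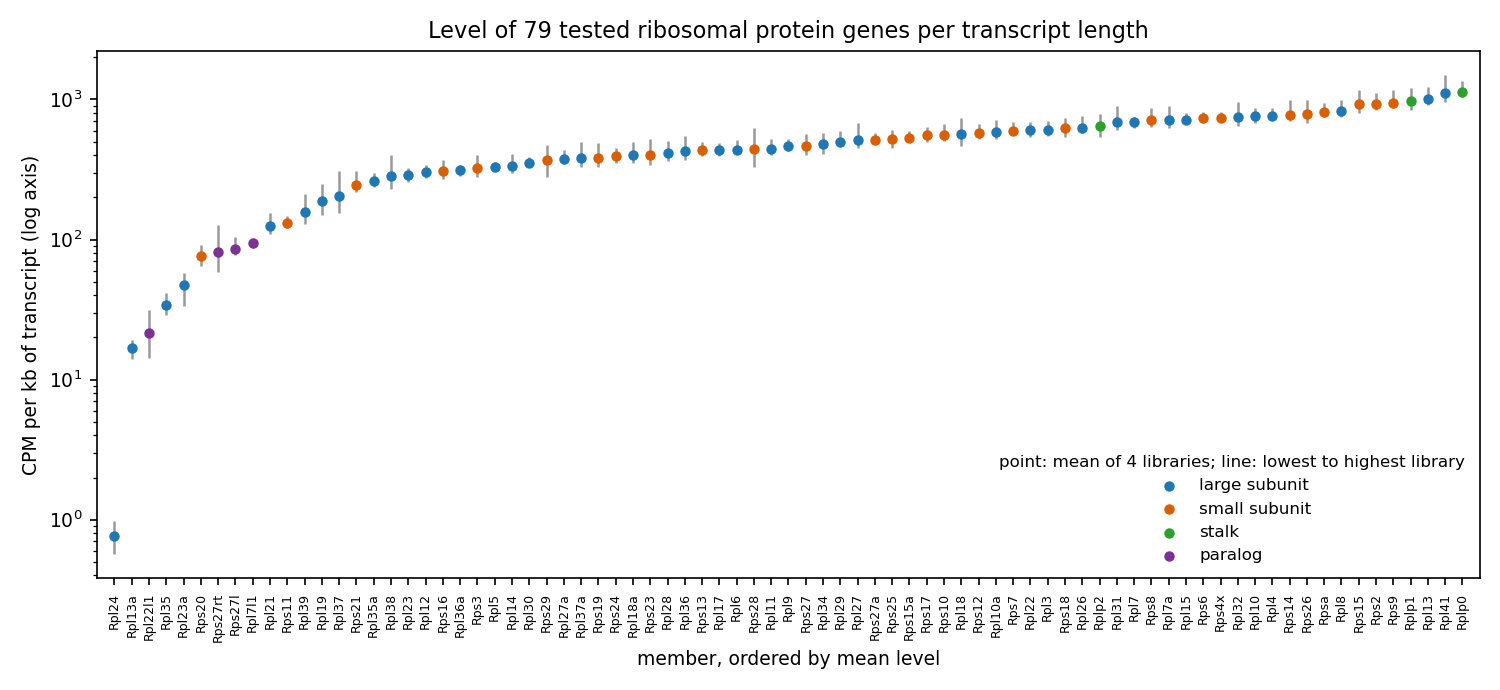
Level of 79 of the 80 tested members in CPM per kb of annotated transcript (log axis), ordered from the lowest to the highest mean; points are means of the 4 libraries, coloured by role, and lines run from the lowest to the highest library. The points of most members lie between 100 and 1200 CPM per kb, with Rpl24 far below the rest at 0.761.

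The lowest members were copies and genes whose exons lie under another gene. Rpl3l, the muscle counterpart of Rpl3, had 0 and 1 counts in the WT libraries and 2 and 0 in the cKO libraries, where a count of 0 allows up to 3 counts, or 0.174 CPM in WT 1 and 0.166 CPM in cKO 2. Rpl39l, a counterpart of Rpl39 best known from the testis, had 4, 0, 3 and 0 counts. Rpl36al had 9, 9, 4 and 11 counts. These 3 genes were too low for the filter and were not tested, which left 80 members. Rpl24, a large subunit protein at the face toward the small subunit, is otherwise an abundant gene but had 10, 8, 7 and 12 counts. In GENCODE M21, which need not be the annotation used for the counts, 71.5% of its exon bases lie under the exons of another gene on the same strand. The same holds for 63.1% of the exon bases of Rpl36al and 59.3% of those of Rpl13a, whose 4 libraries had 272 to 362 counts, while Rpl35 and Rpl23a have 68.3% and 55.4% of theirs under genes of the opposite strand. The tested members with at least 50% of their exon bases under another gene (5 genes) had a median level of 34.1 CPM per kb, against 511 CPM per kb in the 67 tested members with none. Among these 5 genes Rps10 was not low, at 557 CPM per kb with 91.6% of its exon bases under a readthrough gene of GENCODE M21. The genes that overlap Rpl24, Rpl36al, Rpl13a and Rps10 on the same strand were not found by name among the genes of the deposited count table. Whether they took part in the counting is therefore not known. How the counter treated reads on 2 genes is not given in the sources used here, so that the levels of these members are uncertain. The low level of Rps20 per length (76.0 CPM per kb) goes with an annotated transcript of 3706 bases, while its CPM of 282 is in the range of the other small subunit genes.

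Reads can also be shared between members and their pseudogenes. Of the 83 members, 53 shared at least 50% of their 50-base sequences with the transcripts of another annotated gene, which leaves the assignment of their reads uncertain.

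The first comparison asked whether the ribosomal protein genes as a whole took another share of the mRNA in the libraries labelled cKO. They took 3.02% and 2.86% of all counts in WT 1 and WT 2, and 2.85% and 3.70% in cKO 1 and cKO 2. The 2 WT libraries and cKO 1 lay close together and cKO 2 lay above them. The mean was 2.94% ± 0.119 (SD, n = 2) in WT and 3.28% ± 0.603 (SD, n = 2) in cKO, a difference of 0.338 percentage points that was smaller than the SD of the cKO libraries. It was −0.0880 percentage points without cKO 2 and 0.764 without cKO 1. With 2 libraries against 2, an exact permutation test cannot give a p below 0.333. In tissue RNA, a change in the share of a cell type and a change in RNA per cell cannot be told apart.

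Both subunits and the stalk took their largest share in cKO 2. The large subunit genes summed to 1.53% and 1.44% of counts in WT 1 and WT 2, and 1.45% and 1.86% in cKO 1 and cKO 2, and the small subunit genes to 1.26%, 1.18%, 1.18% and 1.54%. The 3 stalk genes summed to 0.222%, 0.217%, 0.207% and 0.277%. In each of these groups the share in cKO 2 was 1.29 to 1.34 times that in cKO 1. For single members, the ratio of cKO 2 to cKO 1 had a median of 1.32 and ran from 0.612 (Rpl22l1) to 1.98 (Rpl37). The ratio of cKO 1 to the WT mean had a median of 0.973, from 0.690 (Rpl23a) to 1.19 (Rps27rt), and 77 of the 80 tested members lay within 20% of the WT mean. The 2 libraries labelled cKO thus differed from each other by more than cKO 1 differed from WT.

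**Figure D2:**
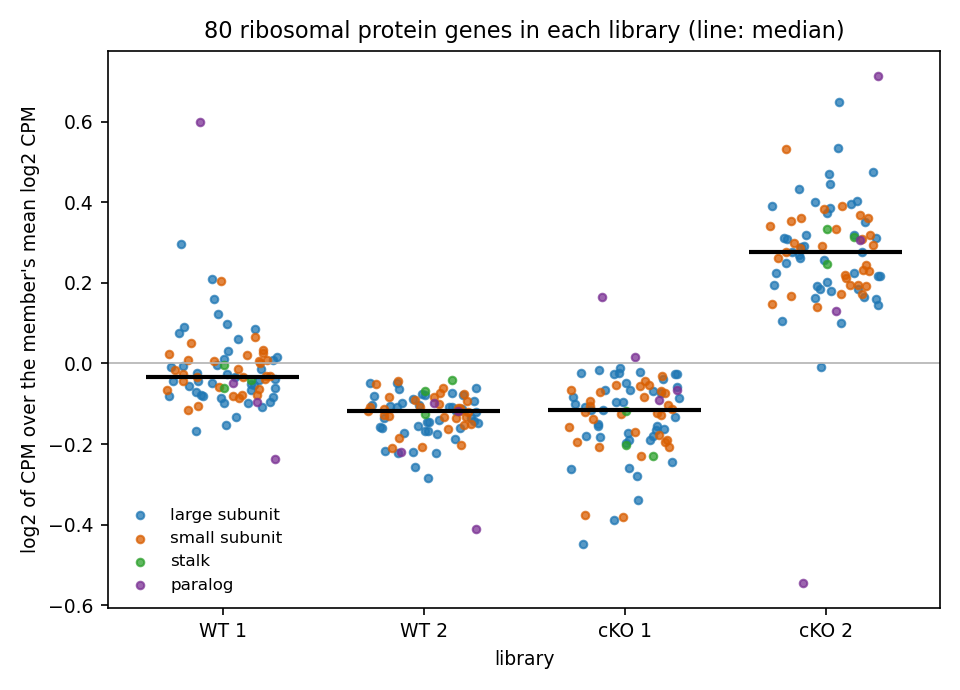
log2 CPM of each of the 80 tested members in each library, relative to its own mean log2 CPM over the 4 libraries; each point is a gene, coloured by role, and lines are medians. Nearly all points of cKO 2 lie above 0, while those of cKO 1 lie at the height of the WT libraries.

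cKO 2 was the highest of the 4 libraries in 78 of the 80 tested members, against 31.5% of all genes tested. The exceptions were Rpl5 and Rpl22l1. cKO 1 was the lowest library in 40 of the 80, against 26.9% of all genes tested. Both cKO libraries were above both WT libraries in 9 members (10.4% of all genes tested) and below both in 0 members (11.2% of all genes tested). A member count of 9 of 80 is near the background, whereas the count for cKO 2 alone is far from it.

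The edgeR quasi-likelihood fit used all 4 libraries. Its log2 fold change (cKO over WT) was above 0 for 77 of the 80 tested members and below 0 for 3. Over all 16145 genes tested, it was above 0 for 7739. The median was 0.17 over the members and −0.01 over all 16145 genes tested. It was 0.17 for the large subunit, 0.17 for the small subunit, 0.15 for the stalk and 0.20 for the 4 tested copies. No difference of a single member passed the adjustment over all genes tested. With the thresholds of the study (2-fold in either direction, unadjusted p up to 0.05), 0 members were called (0.811% of all genes tested). At a Benjamini-Hochberg adjusted p under 0.05 the count of members was also 0 (0% of all genes tested), and the smallest adjusted p of a member was 1.00. At an unadjusted p under 0.05 by edgeR, 1 member was higher (0.235% of all genes tested) and 0 were lower (161 of all 16145 genes tested). DESeq2 gave the same counts of 0, 0 and 1.

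Leaving out cKO 2 changed the sign of the median. Without cKO 2 it was −0.03 over the members, with 24 above 0 and 56 below 0. Without cKO 1, where cKO 2 stands alone against WT and is assumed to vary as the WT libraries do, the median was 0.37. In that fit 50 members were higher at an unadjusted p under 0.05 (5.26% of all genes tested), and the smallest adjusted p of a member by edgeR was 0.0731. In the fit without cKO 2 a single member, Rps28, was lower at an unadjusted p under 0.05 (1.56% of all genes tested).

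**Figure D3:**
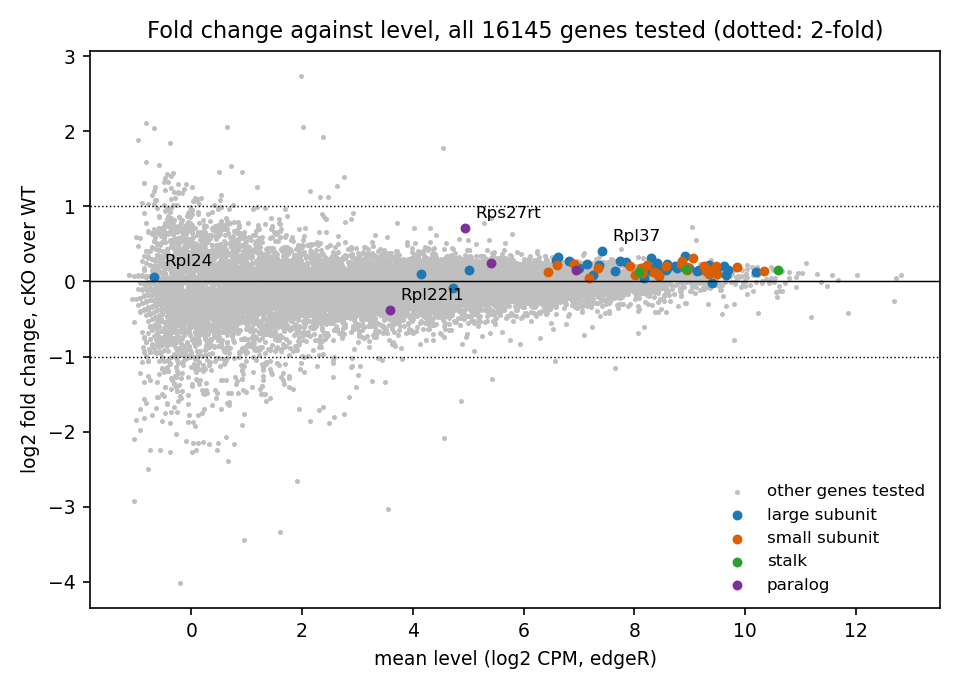
Fitted log2 fold change (cKO over WT) against mean level (log2 CPM) for all 16145 genes tested, with the 80 tested members coloured by role; dotted lines mark a 2-fold change. No member reaches either dotted line, and the abundant members lie just above 0.

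**Figure D4:**
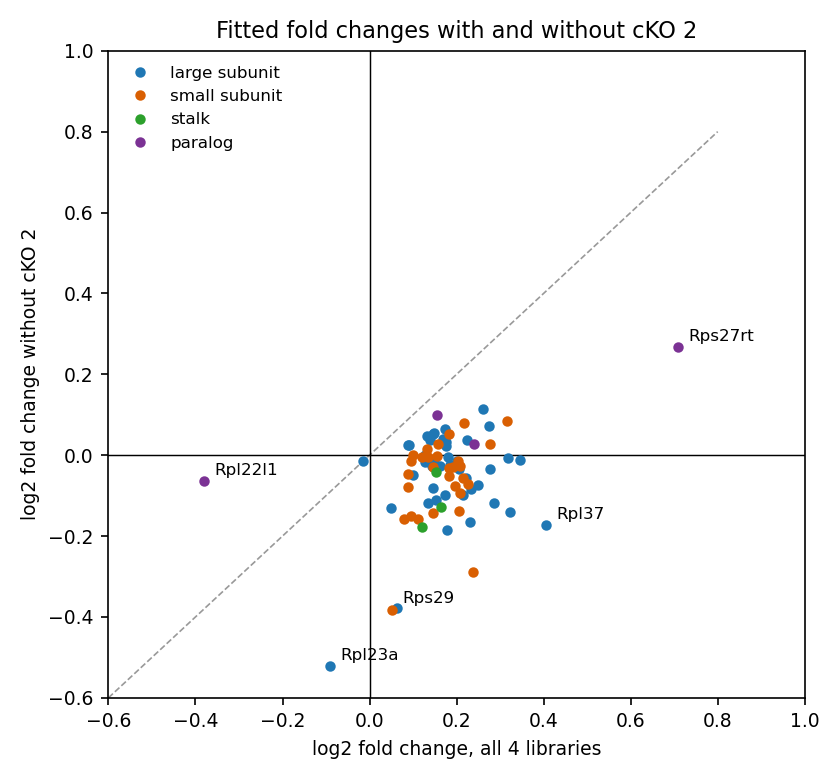
Fitted log2 fold change of each tested member in all 4 libraries (horizontal axis) and without cKO 2 (vertical axis), coloured by role; the dashed line marks equal values. Nearly all points lie below the dashed line, with a median of 0.17 on the horizontal axis and −0.03 on the vertical axis.

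The member with the smallest p was Rps27rt, on chromosome 9 from 114982366 to 114982739 on the minus strand (positions of the deposited table, GRCm38), which lies in 1 exon and encodes a copy of the small subunit protein Rps27. It was at 24.8 and 22.0 CPM in WT 1 and WT 2, and 27.9 and 47.8 in cKO 1 and cKO 2. Both cKO libraries were above both WT libraries, cKO 1 by little and cKO 2 at 2.05 times the WT mean. The log2 fold change was 0.71 (SE 0.27, adjusted p = 1.00, edgeR quasi-likelihood test with Benjamini-Hochberg adjustment) and 0.27 without cKO 2. It shares 91.1% of its 50-base sequences with 9 other genes, which leaves the assignment of its reads uncertain.

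Next in order of p among the members that were higher came Rps26, Rpl21, Rpl34 and Rpl41. Rps26, a small subunit protein at the mRNA exit, was at 490 and 463 CPM in WT 1 and WT 2, and 501 and 676 in cKO 1 and cKO 2, with a log2 fold change of 0.32 (SE 0.19). Rpl21, of the large subunit, was at 105, 98.8, 106 and 139 CPM, with a log2 fold change of 0.28 (SE 0.17). Rpl34, also of the large subunit, was at 225, 197, 226 and 275 CPM, with a log2 fold change of 0.26 (SE 0.17). In these 3 genes both cKO libraries lay above both WT libraries, but cKO 1 did so by a margin smaller than the gap between the WT libraries. Rpl41 was at 427, 428, 420 and 657 CPM, with a log2 fold change of 0.34 (SE 0.22). Here cKO 1 lay below both WT libraries and cKO 2 alone was high. The adjusted p of all 4 genes was 1.00 by edgeR.

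Only 3 members had a fitted fold change below 0. Rpl22l1, the copy of Rpl22 that can take its place in the ribosome, was at 17.3 and 9.82 CPM in WT 1 and WT 2, and 12.8 and 7.85 in cKO 1 and cKO 2. The groups overlapped, and WT 1 and cKO 2 were the extremes. Its log2 fold change was −0.38 (SE 0.34). Rpl23a, which lies at the exit of the nascent peptide, was at 31.7, 23.1, 18.9 and 32.1 CPM, with cKO 1 low and cKO 2 at the level of WT 1, and had a log2 fold change of −0.09 (SE 0.28). Rpl5 was at 736, 630, 671 and 671 CPM, with a log2 fold change of −0.01 (SE 0.16). The 2 cKO libraries of Rpl5 were alike and lay between those of WT. Rpl5 shares 93.8% of its 50-base sequences with 15 other genes, and 46.6% of its exon bases lie under a gene of the opposite strand. The assignment of its reads is therefore uncertain.

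Rpl5 and Rpl11 bind the 5S ribosomal RNA together, and when ribosome assembly fails the free particle holds back Mdm2 and stabilises p53. Unlike Rpl5, Rpl11 was highest in cKO 2, at 366 and 335 CPM in WT 1 and WT 2, and 342 and 437 in cKO 1 and cKO 2 (log2 fold change 0.16, SE 0.18). Of 8 genes of the p53 response to ribosome stress, 0 passed any of the calls in either direction (0.811% of all genes tested at the thresholds of the study). Their median log2 fold change was 0.06, and 0.02 without cKO 2. In 5 of the 8 genes cKO 2 was the highest library, against 31.5% of all genes tested.

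Other members with known roles outside the bulk of the ribosome followed the pattern of the abundant genes. Rps6, the substrate of the S6 kinases downstream of mTOR, was at 656 and 599 CPM in WT 1 and WT 2, and 616 and 715 in cKO 1 and cKO 2 (log2 fold change 0.10, SE 0.16). Rps19, which is mutated in Diamond-Blackfan anaemia, was at 233, 219, 210 and 308 CPM (0.21, SE 0.20). Rpl38, needed in mouse embryos for the translation of certain Hox mRNAs, was at 93.8, 82.3, 79.2 and 139 CPM (0.32, SE 0.25). The groups overlapped in all 3, with cKO 2 above and cKO 1 among or below the WT libraries. Rps27a, made as a fusion with ubiquitin, was at 324, 305, 315 and 369 CPM (0.13, SE 0.16), and in it too cKO 1 lay between the WT libraries. Of the stalk genes, Rplp1 was at 481, 442, 419 and 607 CPM (0.16, SE 0.21) and Rplp2 at 261, 261, 229 and 334 CPM (0.12, SE 0.20), which made cKO 1 the lowest and cKO 2 the highest library in both.

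The copies did not all follow their parent genes. As counts in percent of those of Rpl22, Rpl22l1 stood at 5.70% and 3.72% in WT 1 and WT 2, and 4.99% and 2.41% in cKO 1 and cKO 2, the parent itself being highest in cKO 2 at 325 CPM. Rps27rt stood at 14.97%, 15.9%, 19.2% and 24.3% of Rps27 in the same order. Both ratios had cKO 2 as an extreme, in opposite directions, and only that of Rps27rt kept the groups apart. By contrast, Rps27l, a copy of Rps27 that p53 can induce, stood at 23.8%, 28.1%, 27.2% and 26.5% of Rps27. Rpl7l1, which acts in the assembly of the large subunit, stood at 14.1%, 15.6%, 15.6% and 15.5% of Rpl7. In these 2 pairs WT 1 was the lowest library and the other 3 were alike. Rpl39l and Rpl36al were at most at 0.371% of their parents in any library and Rpl3l at most at 0.0142%. Rpl10l was not analysed here.

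Fau and Rack1, outside the symbol rule, were also highest in cKO 2. Fau was at 232 and 241 CPM in WT 1 and WT 2, and 229 and 361 in cKO 1 and cKO 2 (log2 fold change 0.33, SE 0.22). Rack1 was at 853, 824, 762 and 1018 CPM (0.10, SE 0.19). In both genes cKO 1 lay below the WT libraries.

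In the other lists of the pathway, 0 genes passed any of the 3 calls, against 0.811% of all genes tested at the thresholds of the study. Over all 16145 genes tested, 7739 had a fold change above 0. Of 77 mitochondrial ribosomal protein genes, which serve the separate ribosome of the mitochondria, 65 had a fold change above 0, and the median log2 fold change was 0.14 with cKO 2 and 0.04 without it. Of 36 ribosome assembly factors, 31 were above 0, with a median of 0.14 with cKO 2 and 0.12 without it. Of 17 translation factors of the TOP group, 11 were above 0 (median 0.08, and 0.00 without cKO 2). Of 14 genes of RNA polymerase I, which transcribes the large ribosomal RNA precursor, 9 were above 0 and 5 below (median 0.04). Of 17 regulators of the mTOR and MYC axis, 9 were above 0 and 8 below (median 0.02). cKO 2 was the highest library in 59 of the 77 mitochondrial ribosomal protein genes, 10 of the 17 translation factors, 18 of the 36 assembly factors, 8 of the 14 genes of RNA polymerase I and 7 of the 17 regulators.

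Pseudogenes of the members, too, took their largest share of counts in cKO 2. The 152 annotated ribosomal protein pseudogenes summed to 0.0776% and 0.0807% of counts in WT 1 and WT 2, and 0.0800% and 0.115% in cKO 1 and cKO 2, which is 1.44 times the share in cKO 1, whereas for the members this ratio was 1.30. Of the 66 pseudogenes tested, 52 had a fold change above 0 (7739 of all 16145 genes tested). Their median log2 fold change was 0.34 (−0.06 without cKO 2). At an unadjusted p under 0.05, 5 of the 66 were higher (0.235% of all genes tested), and 4 of these, all but Rpl31-ps8, also passed the 2-fold threshold of the study (0.142% of all genes tested). Their names were taken after their values were seen. Rpl35a-ps2 had 7 and 29 counts in the WT and 26 and 213 in the cKO libraries, and, in the same order, Rps13-ps2 had 25, 52, 42 and 249, Rpl10-ps3 had 7, 13, 15 and 69, Rpl17-ps9 had 9, 16, 18 and 51, and Rpl31-ps8 had 490, 555, 620 and 873. In each of the 5 the bulk of the difference lay in cKO 2, and the adjusted p was 1.00 by edgeR. Reads of a pseudogene and of its parent cannot be told apart where their sequences are the same.

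Transcript length moved with the level in cKO 2, in the members and in other genes. Ribosomal protein mRNAs are mostly short. The largest log2 ratios of cKO 2 to the mean of the other libraries were 0.97 for Rps27rt (transcript of 374 bases), 0.89 for Rpl37 (835 bases), 0.73 for Rpl38 (345 bases) and 0.73 for Rps28 (271 bases). Rpl37 was at 150 and 146 CPM in WT 1 and WT 2, and 130 and 258 in cKO 1 and cKO 2. Rps28 was at 114, 107, 89.8 and 169 CPM. Rpl39 was at 87.6, 85.3, 79.1 and 130 CPM. In these 3 genes cKO 1 was the lowest library and cKO 2 the highest by a wide margin (Rpl37 and Rps28 were chosen after their values were seen). Over the 80 tested members, the log2 ratio of cKO 2 to the mean of the other 3 libraries and the transcript length had a Spearman rho of −0.35 and a Pearson r of −0.21, as a description across genes that share the same libraries. Among members under 500 bases (19 genes) the median of this log2 ratio was 0.44, and among other protein-coding genes of that length (95 genes) it was 0.40. From 500 to 750 bases it was 0.44 in 23 members and 0.29 in 317 other genes, from 750 to 1000 bases 0.41 in 20 and 0.25 in 467, and from 1000 to 2000 bases 0.32 in 16 and 0.15 in 2978. Other protein-coding genes of 4000 bases and over (4143 genes) had a median of −0.14. The members were thus above the median of other genes in each class of length, and least so in the shortest class. The log2 ratio of cKO 1 to WT had a median of −0.06 in both sets under 500 bases. The part of length, or of RNA quality, in the level of the members in cKO 2 was not tested.

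**Figure D5:**
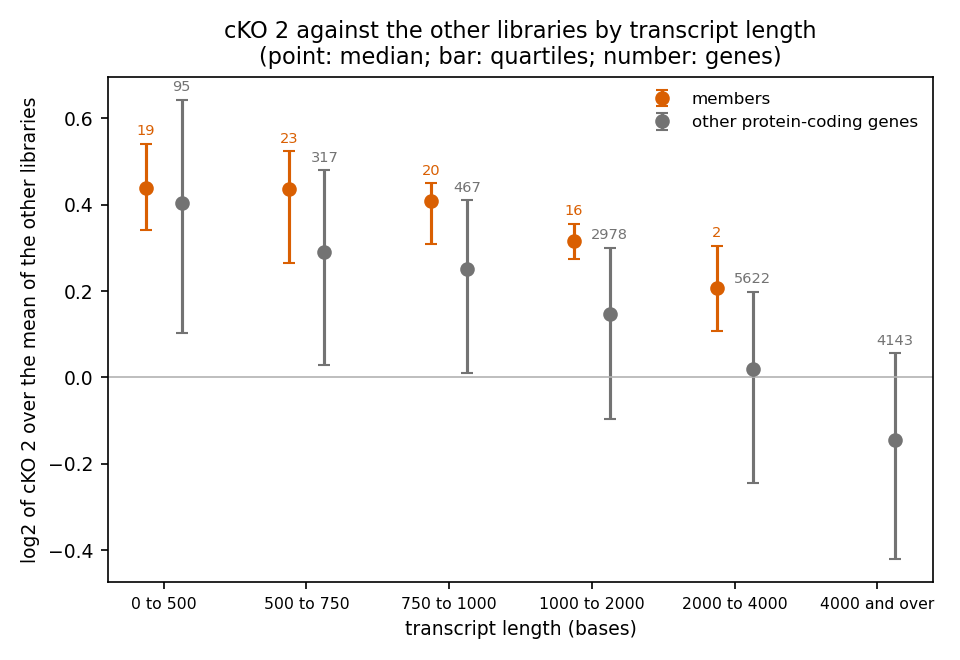
Median log2 ratio of cKO 2 to the mean of the other 3 libraries (TMM-scaled CPM) by transcript length in bases, for the tested members and for other protein-coding genes; bars are quartiles and numbers count genes. The ratio falls with length in both sets, from 0.44 and 0.40 under 500 bases to 0.32 and 0.15 between 1000 and 2000 bases.

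The start sequence and the chromosome of the members were compared with their level in cKO 2. The 30 tested members with a pyrimidine run at the annotated start had a median log2 ratio of cKO 2 to the other libraries of 0.41, and the 30 with an entry and no such run had 0.34. Both sets include values near the extremes, since Rpl22l1 and Rps27rt each hold a run while Rpl5 and Rpl37 hold none. Without cKO 2 the median log2 fold change was −0.05 in the first set and −0.02 in the second. The members lie on 19 chromosomes, with 4 on the X chromosome (Rpl10, Rpl36a, Rpl39 and Rps4x). Rps4x was at 720 and 673 CPM in WT 1 and WT 2, and 691 and 790 in cKO 1 and cKO 2. The lowest library in it was WT 2, the one without Y-linked counts. WT 2 was also the lowest in Rpl10 (539 CPM) and Rpl36a (137 CPM), while cKO 1 was the lowest in Rpl39. Among all 80 tested members, WT 2 was the lowest in 37.

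The summed levels of markers of other cell types were not highest in cKO 2, though single genes were. The choroid plexus and meningeal genes were highest in WT 1, and in cKO 2 they summed to 7.96 and 36.2 CPM. Erythroid genes (8 genes) summed to 1071 and 575 CPM in WT 1 and WT 2, and 467 and 698 in cKO 1 and cKO 2. Microglial genes (5 genes) summed to 37.4, 26.6, 24.0 and 29.4 CPM, and endothelial genes (4 genes) to 147, 109, 97.9 and 96.0 CPM. The 6 proliferation genes summed to 1564, 1563, 1784 and 1515 CPM, which made cKO 2 the lowest library. The 6 genes of the ventral telencephalon summed to 848, 787, 529 and 828 CPM, with cKO 1 low. cKO 2 was the highest library in 3 of these 6 genes and in 1 each of the erythroid, microglial and endothelial genes. The median log2 ratio of cKO 2 to the other 3 libraries was 0.41 over the ventral genes, 0.31 over the microglial and 0.16 over the erythroid genes, beside 0.39 over the members. The part of these cell types in the result was not tested. None of these 7 lists had a gene at 0 in all libraries among those in the table.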

How the data were processed

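The members, the gene lists and the tests were chosen with earlier results of these data known. The authors deposited, per the file headers, raw counts of reads per gene for 4 libraries. The submitters' processing notes name Bowtie2 2.2.3, TopHat2 2.0.12, HTSeq 0.6.0 and mm9 without giving their role, while 97.3% of 27232 gene positions lie within 1 base of GENCODE M21 (GRCm38), 81 of the 83 members among them. Strand, duplicates and multiply mapped reads are not given in the sources used here. Of 27304 rows, 11 (0.0403%) name no gene and were left out. A table of cKO 1 and WT 1 alone, and columns with the authors' own fold changes and p-values, were not used.

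Counts were fitted with edgeR 4.0.16 in R 4.3.3 (TMM, filterByExpr, quasi-likelihood test, no covariate, Benjamini-Hochberg adjustment over 16145 genes), after the procedure was tested on simulated data. CPM use library totals, at which 3 counts are 0.162 to 0.174 CPM. Floors cover counting error only. The SE of a log2 fold change was derived from that fold change and the statistic of the quasi-likelihood test, and it includes the spread between libraries. Transcript lengths are those of the shortest complete principal transcript in GENCODE M21. The length offsets used another length, the union of all annotated exons of a gene. For Rpl18 this union has 4043 bases and the transcript 679. Shared sequence was counted over 50-base stretches of exons. Medians of lists and shares carry no test.

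Genes were named by a rule: members past the thresholds, the 5 smallest p in each direction (of which 3 existed below 0), the 3 highest and 3 lowest levels, copies with their parents, members of known role, and Fau and Rack1. Rpl13a, Rpl35, Rps10, Rps20, Rps28, Rpl13, Rpl37 and Rps4x were named after their values were seen, and Rpl15 and Rpl27a for their start sequence. Alternatives were RLE and upper-quartile scaling, other filters, DESeq2 1.42.0, a replicate block, offsets corrected for exon length, and leaving out each library. The replicate numbers are not stated to pair libraries. Some results are not reported here.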

Additional observations from a re-analysis of the deposited data

How the results depend on the processing

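The count of members at a fold change of 2 and an unadjusted p of 0.05 stayed at 0 under RLE and upper-quartile scaling, other filters, DESeq2, the replicate block, length offsets and a p of 0.01, and ran from 0 to 1 when a library was left out (1, Rps27rt, without cKO 1). The count at an unadjusted p under 0.05 was 1 under the same scalings, filters and models except 3 with no filter beyond 1 count (Rpl37, Rpl41 and Rps27rt), and from 0 to 50 when a library was left out (0 without WT 2, 50 without cKO 1). The count at an adjusted p under 0.05 was 0 throughout. The median log2 fold change of the members was 0.15 with the replicate block, 0.16 by library totals, which were chosen after the data were seen, and 0.17 to 0.19 under the other alternatives with 4 libraries. It ran from −0.03 without cKO 2 to 0.37 without cKO 1. Length offsets moved the median of all genes from −0.01 to 0.06 and that of the members from 0.17 to 0.19. These offsets used the exon union and not the transcript length by which the genes were classed. The difference in the summed share ran from 0.327 to 0.363 percentage points with other denominators or with pseudogenes, and from −0.0880 to 0.764 when a library was left out. By TMM-scaled CPM, also chosen after the data were seen, 10 members in place of 9 kept the groups apart, and 78 were again highest in cKO 2.

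The replicate block changed no call (0, 1 and 0 members). The deviations of same-numbered libraries correlated at 0.108 over 16145 genes, and with 2 numbers that nothing says are shared days or litters the libraries share only a number.

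Of 40 named genes with a fit, 28 changed sign in an alternative, 24 of them without cKO 2, and 0 reached an adjusted p under 0.05 in any. When a library was left out, the log2 fold change ran from −0.034 to 0.63 for Fau, −0.13 to 0.30 for Rack1, −0.026 to 0.34 for Rpl11, −0.015 to 0.40 for Rpl13, −0.076 to 0.31 for Rpl13a, −0.13 to 0.22 for Rpl22, −0.76 to 0.069 for Rpl22l1, −0.52 to 0.25 for Rpl23a, −0.38 to 0.41 for Rpl24, −0.012 to 0.30 for Rpl3, −0.11 to 0.39 for Rpl35, −0.0037 to 0.20 for Rpl36a, −0.17 to 0.82 for Rpl37, −0.14 to 0.68 for Rpl38, −0.12 to 0.61 for Rpl39, −0.018 to 0.27 for Rpl4, −0.013 to 0.64 for Rpl41, −0.10 to 0.089 for Rpl5, −0.041 to 0.33 for Rplp0, −0.13 to 0.42 for Rplp1, −0.18 to 0.37 for Rplp2, −0.031 to 0.38 for Rps10, −0.093 to 0.47 for Rps19, −0.16 to 0.35 for Rps20, −0.052 to 0.39 for Rps27, −0.29 to 0.63 for Rps28, −0.013 to 0.21 for Rps6 and −0.029 to 0.31 for Rpsa. With length offsets that of Rpl5 was 0.049. The cause of these changes was not tested. Depth limits Rpl24, Rpl36al, Rpl39l and Rpl3l, all with at most 12 counts in a library, and 2 libraries a group limit every test. Fits without a library leave 1 in its group, which is assumed to vary like the other group.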
